A study of Homo sapiens with 12 samples.

Results

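The first 4 days of neural differentiation were followed in wild-type cells of the H9 line, a long-established line of human embryonic stem cells. This comparison set 2 libraries of day 4 (WT1 and WT2) against 2 libraries of day 0 (WT1 and WT2), which makes 4 of the 12 libraries of the study, chosen by their genotype and day labels. The remaining libraries were wild type at day 8 (2) and cells labelled SOX21-/-, titled S13 and S23, at days 0, 4 and 8 (2 each). They entered the fit to share the estimate of spread, and are shown where they bear on this step. Day 0 is the stem cell state, and the differentiation medium was not given in the sources used here. All groups share the H9 background, so they come from a single donor. Whether WT1 and WT2 are separate cultures, and whether the label ties a day 0 to a day 4 library, was not given either, so p-values speak only of how far these libraries spread.

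Human embryonic stem cells keep themselves undifferentiated with a small set of transcription factors, led by POU5F1, NANOG and SOX2, and with NODAL and FGF signals. They form an epithelium held together by E-cadherin. When NODAL and BMP signals are withdrawn they become neuroectoderm, an epithelium that makes PAX6 and N-cadherin, and by default this tissue takes on an anterior, forebrain-like and eye-field-like character before neurons appear. SOX2 is made in both states and changes its partners along the way.

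Levels were in TPM, a measure of transcript abundance that is already divided by transcript length. The protein-coding genes outside the mitochondrial genome were rescaled to a total of 1000000 in each library, and every level below is such a rescaled TPM unless it is said to be as deposited. These genes held 55.9% of the deposited TPM in both wild-type day 0 libraries and 86.7% to 87.0% in the wild-type day 4 libraries, and the mitochondrially encoded genes held 23.4% to 23.5% and 7.2% to 7.4%. The number of reads per library is not kept by TPM, so the depth is unknown. Of 19804 such genes, 14809 reached 1 TPM in at least 2 of the 12 libraries and were tested, with limma on log2(TPM + 1), a scale that understates the change of low genes. Pearson's r across genes (no independent replicates of each other) between the 2 libraries of a group was 0.983 at day 0 and 0.989 at day 4. In bulk RNA a lower level can come from fewer cells of a type or from less RNA per cell, and these cannot be told apart.

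After rescaling, the median log2 fold change of all tested genes was still 0.55, so a value near 0.55 is that of a typical gene. With this scaling 7651 genes were higher at day 4 and 2848 were lower at an adjusted p under 0.05, which is 51.7% and 19.2% of those tested (70.9% in either direction). With median-of-ratios scaling, which brings the median change to 0, the split was 4485 higher and 4836 lower, while quantile normalization gave 5325 and 3957. The change also followed the length of the shortest annotated transcript of a gene in GENCODE v29. The median log2 fold change was -0.95 over 426 genes with a transcript of at most 200 bases, -0.59 over 1296 genes of 200 to 300, 0.28 over 2405 genes of 300 to 400, and 1.07 over 1022 genes whose shortest transcript was longer than 2000 bases. The labels name 3 sequencers and 3 read lengths without saying which library had which, so a difference in sequencing and the day cannot be told apart. Centring each library within 20 bins of that length, an alternative chosen after seeing the data, gave 4444 higher and 4481 lower genes. Below, a gene is said to have risen or fallen only where it was called in that direction under all 4 of these scalings, as were 3634 genes (24.5%) for a rise and 2491 (16.8%) for a fall. Any other gene is called uncalled, whatever its p under the rescaled TPM, and pairs of levels are always those of WT1 and WT2 in this order. The gene lists below were chosen with earlier results of these data known. Every count of rises and falls in a list is to be read beside the shares of all genes, 24.5% and 16.8%. The counts describe the lists and test nothing.

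**Figure D1:**
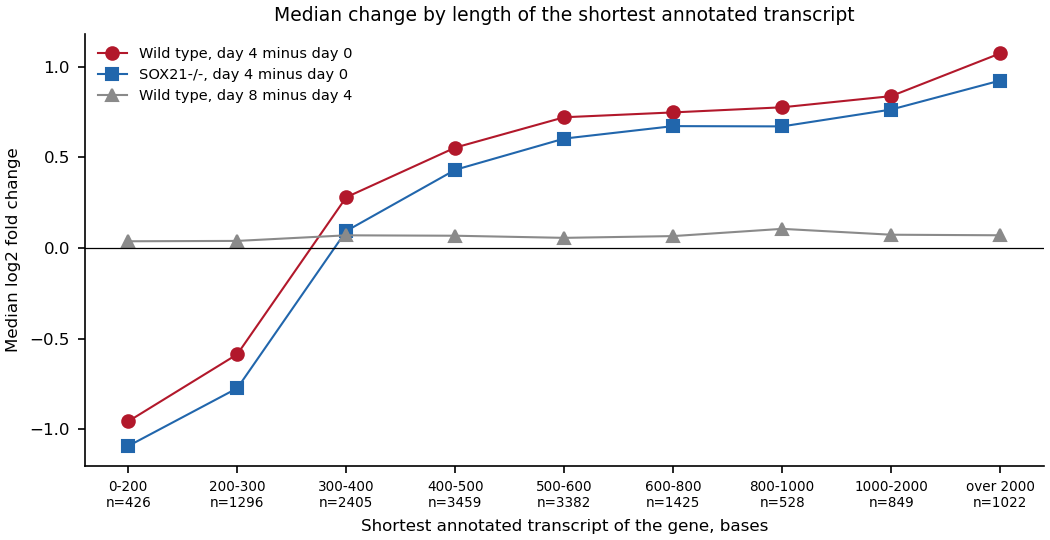
Median log2 fold change (vertical axis) of the tested genes, binned by the length in bases of their shortest annotated transcript (horizontal axis, with the number of genes per bin), for wild type between days 0 and 4 (circles), the same days in the libraries labelled SOX21-/- (squares) and wild type between days 4 and 8 (triangles). Both steps from day 0 climb from about -1 in the bin of at most 200 bases to 1.07 and 0.92 above 2000 bases, while the medians of the later step lie between 0.038 and 0.11 in all bins.

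The stem cell programme was largely lost by day 4. Of 28 tested genes of core pluripotency, 19 fell and 5 rose, against 16.8% and 24.5% of all genes. The rises were thus below the general share. The median log2 fold change of the 28 was -1.81, and -2.47 after centring by transcript length. POU5F1, also called OCT4, the factor on which the state depends (chromosome 6, 31164337 to 31180731, minus strand, GRCh38), was at 3116 and 3118 TPM at day 0 and 23.6 and 37.3 TPM at day 4 (log2 fold change -6.67 with SE 0.30, adjusted p = 4.82e-08). Both day 4 libraries thus still held POU5F1 mRNA, and at day 8 the level was 1.04 and 0.608 TPM (log2 fold change from day 4 -4.08, adjusted p = 2.92e-05). NANOG, its homeodomain partner (chromosome 12, 7787794 to 7799141, plus strand), stood at 44.1 and 40.5 TPM at day 0 and 0.148 and 0.17 TPM at day 4 (log2 fold change -5.22 with SE 0.20, adjusted p = 1.65e-08). TDGF1, the co-receptor CRIPTO through which NODAL acts, had the largest fall of the list, from 725 and 642 TPM to 0.462 and 0.687 TPM (log2 fold change -8.77 with SE 0.19, adjusted p = 9.89e-10). The groups did not overlap for any of these 3 genes, as for 86.2% of all genes tested.

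Other members of the list fell by less and some were still well expressed at day 4. The zinc finger gene ZSCAN10 went from 524 and 545 to 17.9 and 16.9 TPM, the RNA-binding protein gene L1TD1 from 127 and 145 to 15.8 and 17.3 TPM, and PRDM14, a repressor of differentiation genes, from 34.1 and 22.6 to 3.10 and 3.34 TPM. DPPA4 was at 549 and 562 TPM at day 0 and 155 and 162 TPM at day 4 (log2 fold change -1.80), a level held at day 8 (140.2 and 165 TPM). PODXL, the sialomucin that carries the TRA-1 epitopes of stem cells, fell from 289.8 and 273 to 68.8 and 67.5 TPM (-2.03). TERF1 (-2.35), PIM2 (-1.81), the tetraspanin CD9 (-5.75) and FOXD3 (-3.10, listed at 0 in both day 4 libraries) also fell. Of 9 tested genes of the naive state, an earlier stage that such lines have left, 4 fell and 1 rose. ZFP42, also called REX1, fell from 62.8 and 56.6 to 1.44 and 1.04 TPM.

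Genes of the stem cell state that rose, not all of them members of the core list, include some that neural progenitors also use. SOX2 was at 119 and 120.1 TPM at day 0 and 496 and 490.5 TPM at day 4 (log2 fold change 2.04 with SE 0.14, adjusted p = 5.90e-07), and OTX2, a homeobox gene of the primed state and of the forebrain, at 32.7 and 44.7 TPM at day 0 and 246 and 252 TPM at day 4 (log2 fold change 2.67 with SE 0.27, adjusted p = 8.22e-06). LIN28A, which blocks the maturation of let-7 miRNAs, rose from 301 and 306 to 969.9 and 990.0 TPM, and its relative LIN28B from 28.4 and 26.7 to 96.5 and 94.5 TPM. TRIM71 (1.66) and SALL4 (1.96) rose as well. The rises of LIN28A and TRIM71 shrank to 0.59 and 0.56 after centring by transcript length. DNMT3B, the de novo methyltransferase of the stem cell state, was at 206 and 183 TPM at day 0 and 191 and 198 TPM at day 4, with a log2 fold change of 0.0049 (adjusted p = 0.974) that became -0.89 (adjusted p = 0.000175) after that centring. By day 8 it was at 72.3 and 74.8 TPM.

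**Figure D2:**
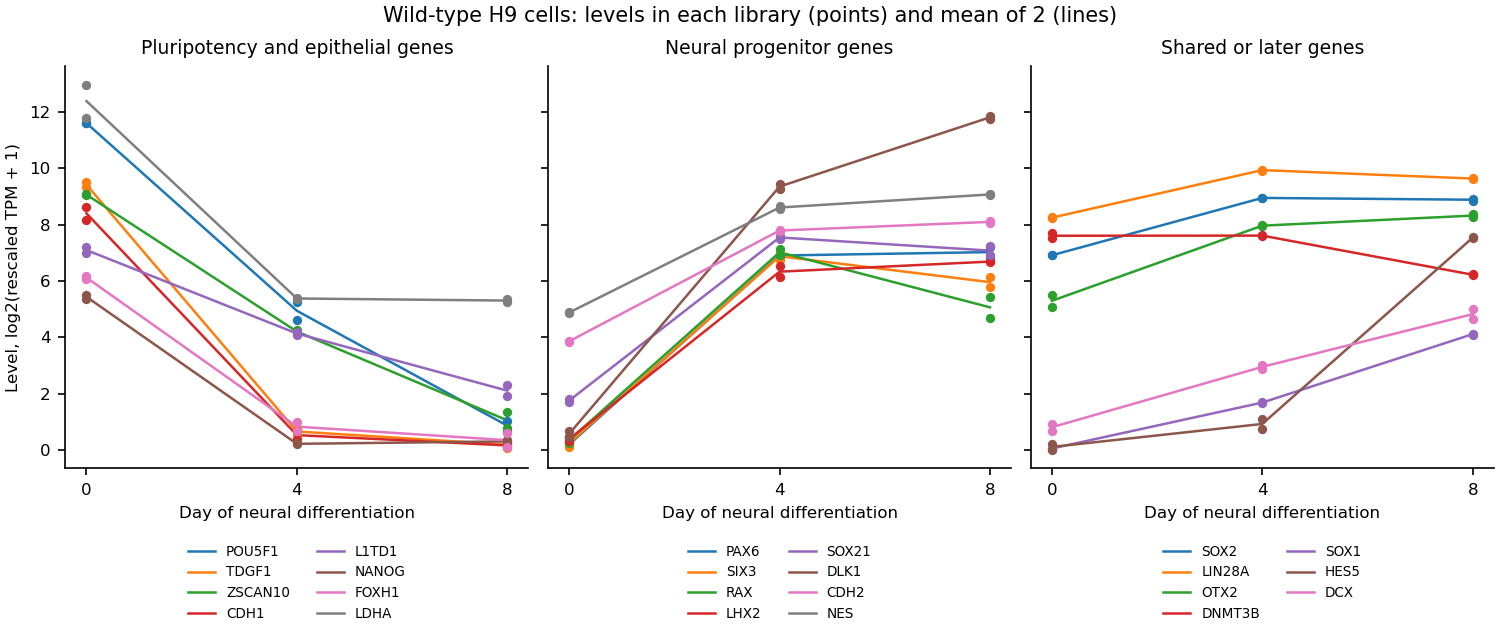
Levels of 23 genes in the wild-type libraries, as log2(rescaled TPM + 1) on the vertical axis against the day of differentiation, with a point for each library and a line through the mean of 2. Genes of pluripotency and epithelium drop between day 0 and day 4 (left), neural progenitor genes climb over the same days (middle), and on the right SOX2, LIN28A and OTX2 are high throughout while SOX1, HES5 and DCX climb mostly or also after day 4.

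The promoter of NANOG is shown because it holds, side by side, motifs of the kinds that POU5F1 and SOX2 bind, factors whose own mRNA moved in opposite directions. The stretch lies at chr12:7789152-7789395 on the plus strand of GRCh38.p14, from RefSeq, covers the 244 bases that end 7 bases before the annotated start, and touches no exon of GENCODE v29. Capitals mark the octamer core, ATGCAAA or its reverse complement, and the SOX motif ACAATG.
NANOG: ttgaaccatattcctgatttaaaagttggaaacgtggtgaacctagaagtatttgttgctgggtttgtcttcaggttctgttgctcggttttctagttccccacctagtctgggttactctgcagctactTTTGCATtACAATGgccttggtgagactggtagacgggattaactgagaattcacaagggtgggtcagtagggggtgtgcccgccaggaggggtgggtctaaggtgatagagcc
The octamer match begins 120 bases before the start and the SOX match 112 bases before it, with a single base between them. Over all 35116 promoters of the table, searched on both strands in the 250 bases before the start, 3.94% hold the octamer core, 9.29% hold the SOX motif and 0.541% hold both. Of the 19 genes of the list that fell, 11 had a promoter in the table. The octamer core was found for 2 of these (NANOG and PIM2), against 4.84% of all genes, and the SOX motif for 2 (GDF3 and NANOG), against 11.2%. These matches describe the letters and say nothing of binding in these cells.

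Genes that mark the primed state did not move together. Of 16 tested, 7 rose and 5 fell. The surface glycoprotein genes CD24 and THY1 fell, CD24 from 4167 and 3406 to 703 and 649.9 TPM and THY1 from 404 and 374 to 129 and 121 TPM. SALL2 rose from 100.4 and 102 to 459.6 and 536 TPM and SOX11 from 8.75 and 9.33 to 128 and 132 TPM. ZIC2, with a role in the forebrain, was at 257 and 220.5 TPM at day 0 and 301 and 300.1 TPM at day 4 (log2 fold change 0.33 with SE 0.15, adjusted p = 0.0678), and was not called.

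Neural progenitor genes came on at day 4. Of 30 tested, 26 rose and 0 fell, against 24.5% and 16.8% of all genes (median log2 fold change 3.15, and 2.28 after centring). Members near 0 at day 0, PAX6 among them, passed the filter through other libraries and had no room to fall. PAX6, the paired-box gene that defines human neuroectoderm (chromosome 11, 31784779 to 31818062, minus strand), was at 0.194 and 0.0897 TPM in the stem cells and at 115 and 123 TPM at day 4 (log2 fold change 6.71 with SE 0.22, adjusted p = 6.30e-09). SOX21, the gene named in the other genotype of the study, was at 2.26 and 2.48 TPM at day 0 and 179.9 and 192 TPM at day 4 (log2 fold change 5.79 with SE 0.42, adjusted p = 1.01e-06). DLK1, an imprinted NOTCH-like ligand, made the largest rise among genes at 10 TPM or more, from 0.602 and 0.372 to 608 and 701 TPM, and reached 3720 and 3481 TPM at day 8. For each of these, both day 4 libraries lay far above both day 0 libraries.

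Structural and adhesion genes of the neuroepithelium rose alongside these factors. NES, the intermediate filament gene nestin, rose from 27.9 and 28.9 to 372 and 407 TPM (3.73), VIM from 144 and 141 to 382 and 416 TPM (1.48) and the cell adhesion gene NCAM1 from 4.98 and 3.12 to 40.3 and 45.3 TPM (3.14). LIX1 (6.32), ZEB2 (5.30), DACH1 (3.96), ZBTB16, known as PLZF, a marker of rosettes (3.95), ZNF521 (3.55) and MSI1 (1.36) rose. FABP7, the brain lipid-binding protein of radial glia, was at 11.1 and 10.2 TPM, then at 60.7 and 55.6 TPM, and at 287 and 354 TPM at day 8.

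Some progenitor genes had barely started by day 4. SOX1, an early marker of neuroectoderm, was at 0.032 and 0.0321 TPM at day 0, at 2.13 and 2.27 TPM at day 4 and at 16.5 and 16.04 TPM at day 8, and was not called with every scaling. HES5, a target of NOTCH, was at 0.66 and 1.16 TPM at day 4 and at 182 and 188 TPM at day 8, a log2 fold change of 6.62 (adjusted p = 2.53e-07) for the later step against 0.82 for the earlier. HES4 had reached 10.1 and 12.07 TPM at day 4 against 369 and 285 TPM at day 8, and POU3F3 only 0.334 and 0.322 TPM. HES3 peaked at day 4: it rose from 26.4 and 19.7 to 90.6 and 101 TPM and was at 1.42 and 1.30 TPM at day 8. From day 4 to day 8, 1776 genes were higher and 1059 lower, 19.1% of those tested in either direction. The steps before and after day 4 share the day 4 libraries, so their values are set side by side and not correlated.

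Regional genes of the anterior forebrain and the eye field rose by day 4. Of 20 listed genes, 17 reached the level for testing, and of these 15 rose and 0 fell (median log2 fold change 3.44). Members near 0 at day 0, such as RAX, SIX3 and LHX2, passed the filter through other libraries and had no room to fall. The count of falls and the median are thus partly set by the filter. RAX, which specifies the eye field, was at 0.361 and 0.183 TPM at day 0 and 119.5 and 139 TPM at day 4 (log2 fold change 6.68 with SE 0.32, adjusted p = 6.84e-08), and SIX3, which keeps the anterior brain free of WNT signals, at 0.0711 and 0.288 TPM at day 0 and 107 and 127 TPM at day 4 (log2 fold change 6.65 with SE 0.23, adjusted p = 8.47e-09). LHX2 was at 0.239 and 0.368 TPM at day 0 and 69.2 and 91.0 TPM at day 4 (log2 fold change 5.95 with SE 0.19, adjusted p = 6.20e-09). The zinc finger gene FEZF1 was already at 25.4 and 27.9 TPM in the stem cells and stood at 504 and 499 TPM at day 4. HESX1, a repressor of the early anterior neural plate, rose from 5.64 and 5.48 to 89.5 and 81.2 TPM and was back at 6.79 and 7.14 TPM at day 8. SP8 (3.69), LMO3 (3.44) and SIX6 (2.39) rose too.

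Genes of the caudal forebrain and midbrain also rose, 10 of 19 tested, with 1 that fell (median 1.68). The list held 26 genes before the filter, and tested members near 0 at day 0, such as NR2F2, had no room to fall. NR2F2, an orphan nuclear receptor, was at 0.0322 and 0 TPM at day 0 and 49.1 and 42.1 TPM at day 4 (log2 fold change 5.51 with SE 0.20, adjusted p = 1.12e-08), LHX5 at 0.0902 and 0.182 TPM at day 0 and 54.8 and 46.6 TPM at day 4 (log2 fold change 5.50 with SE 0.23, adjusted p = 3.30e-08), and NR2F1 at 0.0232 and 0 TPM at day 0 and 21.2 and 25.4 TPM at day 4. PAX2 rose to 15.2 and 21.7 TPM and was at 0.0401 and 0.508 TPM at day 8, and DBX1 rose to 21.0 and 17.9 TPM. EMX1, a gene of the dorsal telencephalon, fell from 6.83 and 5.77 to 1.71 and 2.33 TPM. WNT8B, the caudal WNT ligand in the title of the study, was at 0.0868 and 0.176 TPM at day 0 and 3.19 and 3.67 TPM at day 4 (log2 fold change 1.97 with SE 0.49, adjusted p = 0.0041) and lost its call after centring by transcript length (adjusted p = 0.0726). Of 22 listed genes of the hindbrain and spinal cord, most of them HOX genes, 22 were found by name among protein-coding genes and only 3 reached the level for testing.

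Markers of other lineages were low at day 4. The summed level of the 5 mesendoderm markers (T, also called TBXT, EOMES, MIXL1, SOX17 and GATA4) was 0.267 and 0.415 TPM at day 0 and 0.963 and 0.880 TPM at day 4, and SOX17 and EOMES were listed at 0 in all 4 libraries. Of the 4 markers of non-neural ectoderm, none reached 1 TPM at day 4, with sums of 37.9 and 18.1 TPM at day 0, nearly all KRT7, and 0.372 and 0.649 TPM at day 4. The neural crest markers summed to 10.1 and 9.02 TPM at day 0 and to 1.71 and 2.70 TPM at day 4. The fibroblast markers summed to 55.6 and 68.1 TPM and then to 5.72 and 9.15 TPM, with COL3A1, LUM and DCN under 1 TPM at day 4. Of the trophoblast and amnion markers only GABRP was above 1 TPM, at 179 and 216 TPM at day 0 and 1.34 and 3.83 TPM at day 4. The 6 stem cell markers summed to 4510 and 4410 TPM and then to 1682 and 1716 TPM, of which POU5F1 was 3116 and 3118 and then 23.6 and 37.3 TPM, and the 6 neural progenitor markers to 147 and 149 TPM and then to 1055 and 1115 TPM. SOX2 is in both sums, at 119 and 120.1 TPM at day 0 and 496 and 490.5 TPM at day 4. LIN28A, at 969.9 and 990 TPM at day 4, made up most of the stem cell sum of that day. The day 0 libraries thus carried the markers of the stem cells on their label. In the day 4 libraries POU5F1, NANOG and TDGF1 had fallen and PAX6, LHX2 and NES had risen. SOX1 (2.13 and 2.27 TPM) and HES5 (0.66 and 1.16 TPM) were still low there. In the longer lists, 9 of 16 tested genes of non-neural ectoderm and placode fell and 1 rose, 2 of 6 of amnion and trophoblast fell and 1 rose, 3 of 6 of mesendoderm fell and 1 rose, and 4 of 10 mesenchymal genes fell and 2 rose.

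Of 18 neuronal genes tested, 3 rose and 3 fell, against 24.5% and 16.8% of all genes. MAP2, a dendritic microtubule protein gene, rose from 7.12 and 7.56 to 98.1 and 109.9 TPM, INA from 4.94 and 6.28 to 38.0 and 38.2 TPM, and DCX, made in migrating neurons, from 0.592 and 0.91 to 6.30 and 7.15 TPM. NEUROD1 and NEUROG2 were under 0.5 TPM in all 4 libraries. The 5 neuron markers summed to 106 and 102 TPM at day 0 and 192 and 209 TPM at day 4, most of it TUBB3, a neuronal tubulin gene, at 86.8 and 79.7 TPM and then 162 and 181 TPM (log2 fold change 1.032 with SE 0.18, adjusted p = 0.000377), which was not called in every scaling. STMN2 was at 18.1 and 20.9 TPM at day 0 and 23 and 21.1 TPM at day 4 (log2 fold change 0.17 with SE 0.23, adjusted p = 0.522). RBFOX3, whose protein is the NeuN antigen, fell from 57.3 and 56.9 to 16.6 and 8.60 TPM. Of 16 genes of the neural crest and dorsal midline, 3 rose and 3 fell. NGFR rose from 1.88 and 3.38 to 27.8 and 34.8 TPM and ZIC1 from 0.812 and 0.257 to 7.06 and 6.33 TPM, while ETS1 fell from 9.52 and 8.50 to 0.717 and 0.655 TPM.

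**Figure D3:**
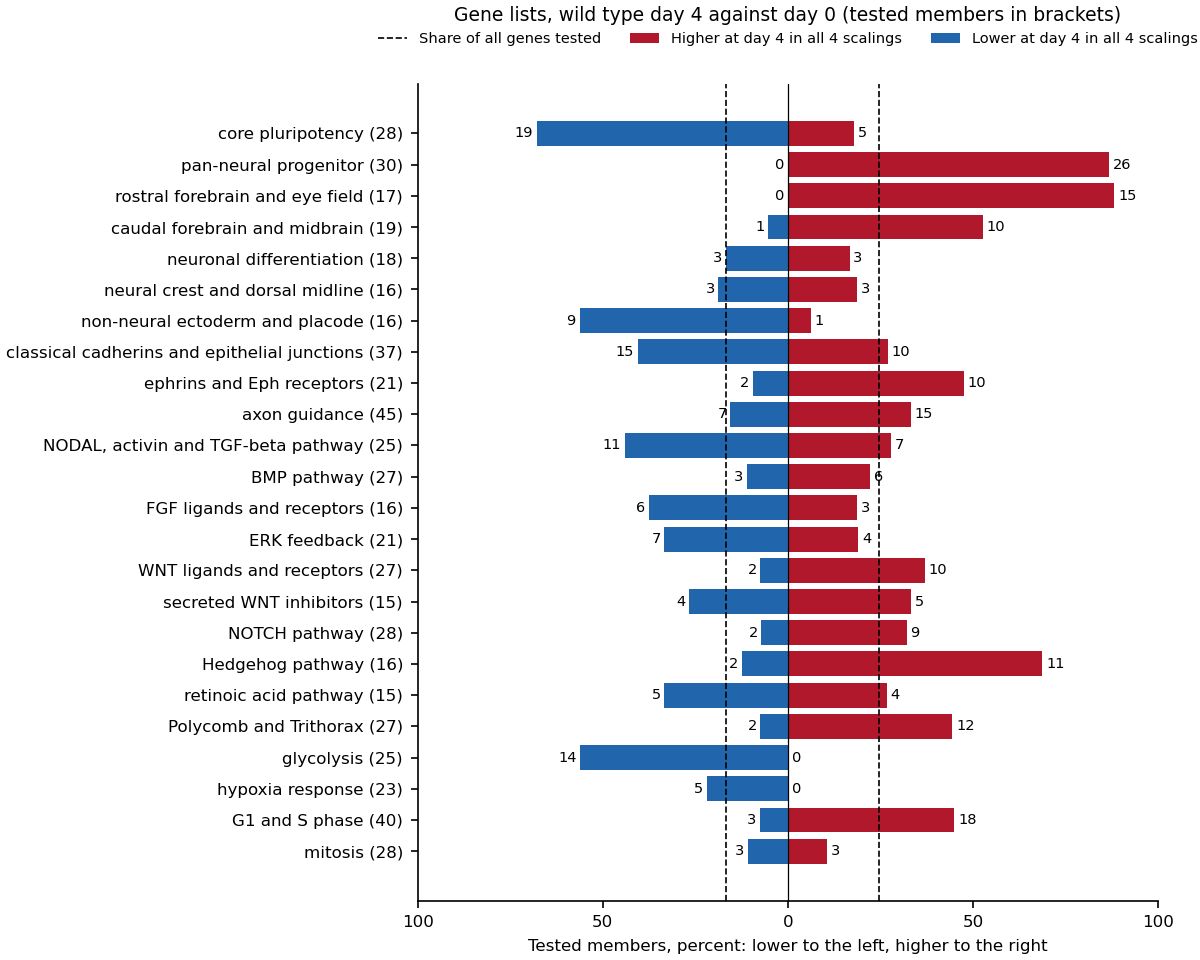
Percent of the tested members of 24 gene lists that were higher (right) or lower (left) at day 4 in all 4 scalings, with the number of members beside each bar and the tested members in brackets. Dashed lines mark the share of all genes tested, 24.5% for higher and 16.8% for lower. The pan-neural, rostral and Hedgehog lists extend far to the right, and the pluripotency, non-neural ectoderm and glycolysis lists far to the left.

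Adhesion genes of the stem cell epithelium fell, and some cadherin genes of neural tissue rose. Of 37 tested cadherin and junction genes, 15 fell and 10 rose, against 16.8% and 24.5% of all genes, so the rises were near the general share. CDH1, E-cadherin (chromosome 16, 68737225 to 68835548, plus strand), had 288 and 394 TPM at day 0 and 0.302 and 0.584 TPM at day 4 (log2 fold change -7.88 with SE 0.20, adjusted p = 2.00e-09). CDH2, N-cadherin, stood at 13.3 and 13.7 TPM at day 0 and 219 and 222 TPM at day 4 (log2 fold change 3.94 with SE 0.14, adjusted p = 8.82e-09). P-cadherin, CDH3, went down with CDH1, from 103 and 130.1 to 5.86 and 6.42 TPM (-4.03). Other cadherin genes of neural tissue came up: CDH11 went from 6.04 and 3.87 to 109 and 132 TPM (4.37), CDH6 from 0.377 and 0.975 to 13.5 and 15.96 TPM (3.25), and CDH4 (1.93), CDH7 (2.10) and CDH10 (2.19) rose.

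Tight-junction and polarity genes split in the same way. EPCAM, an epithelial surface protein gene, fell from 129.7 and 139 to 5.66 and 6.26 TPM and the claudin gene CLDN7 from 58.5 and 60.7 to 0 and 0.47 TPM. CLDN6 was at 551 and 556 TPM and still at 182 and 188 TPM at day 4 (-1.57). The 3 Crumbs genes diverged, with CRB3 down from 15.02 and 13.2 to 0.686 and 0 TPM, CRB2 up from 1.59 and 1.56 to 41.2 and 44.0 TPM and CRB1 up from 0.0277 and 0.028 to 2.04 and 1.17 TPM. The atypical kinases of the same polarity complex fell, PRKCI from 206 and 175 to 40.5 and 35.1 TPM and PRKCZ from 60.6 and 57.7 to 22.4 and 19.6 TPM. TJP1, the scaffold ZO-1 of tight junctions, rose (1.25), and DSG2, a desmosomal cadherin, was at 39.2 and 39.6 TPM at day 0 and 43.4 and 39.8 TPM at day 4, without a call (log2 fold change 0.07 with SE 0.15, adjusted p = 0.671). Keratins of simple epithelia fell: KRT8 from 812 and 775 to 71.2 and 72.5 TPM, KRT18 from 158 and 152 to 33.1 and 37.1 TPM and KRT7 from 37.9 and 18.1 to 0.0522 and 0.649 TPM.

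Among 8 tested transcription factors of the epithelial-mesenchymal transition, the repressors ZEB1 and ZEB2 and the factors GRHL2 and OVOL2 moved in opposite directions, 2 up and 2 down. ZEB2 was at 0.873 and 0.276 TPM at day 0 and 58.0 and 62.3 TPM at day 4 (log2 fold change 5.30 with SE 0.25, adjusted p = 6.08e-08), and ZEB1 at 0.507 and 0.351 TPM at day 0 and 19.1 and 24.8 TPM at day 4 (log2 fold change 3.995 with SE 0.19, adjusted p = 6.19e-08). GRHL2, a grainyhead factor that sustains epithelial genes, was at 20.8 and 31.1 TPM at day 0 and 0.0528 and 0.0421 TPM at day 4 (log2 fold change -4.66 with SE 0.32, adjusted p = 7.52e-07), and OVOL2 at 19.5 and 13.2 TPM at day 0 and 0.118 and 0 TPM at day 4 (log2 fold change -4.01 with SE 0.27, adjusted p = 6.54e-07). The epithelial splicing regulators ESRP1 and ESRP2 fell, from 65.5 and 66.5 to 1.17 and 1.52 TPM and from 28.1 and 30.9 to 1.55 and 1.64 TPM. SNAI1 was at 5.63 and 6.66 TPM at day 0 and 4.50 and 3.79 TPM at day 4 (log2 fold change -0.47 with SE 0.22, adjusted p = 0.08) and SNAI2 at 0.644 and 0.372 TPM at day 0 and 1.31 and 2.89 TPM at day 4 (log2 fold change 0.9978 with SE 0.43, adjusted p = 0.0581), both uncalled.

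**Figure D4:**
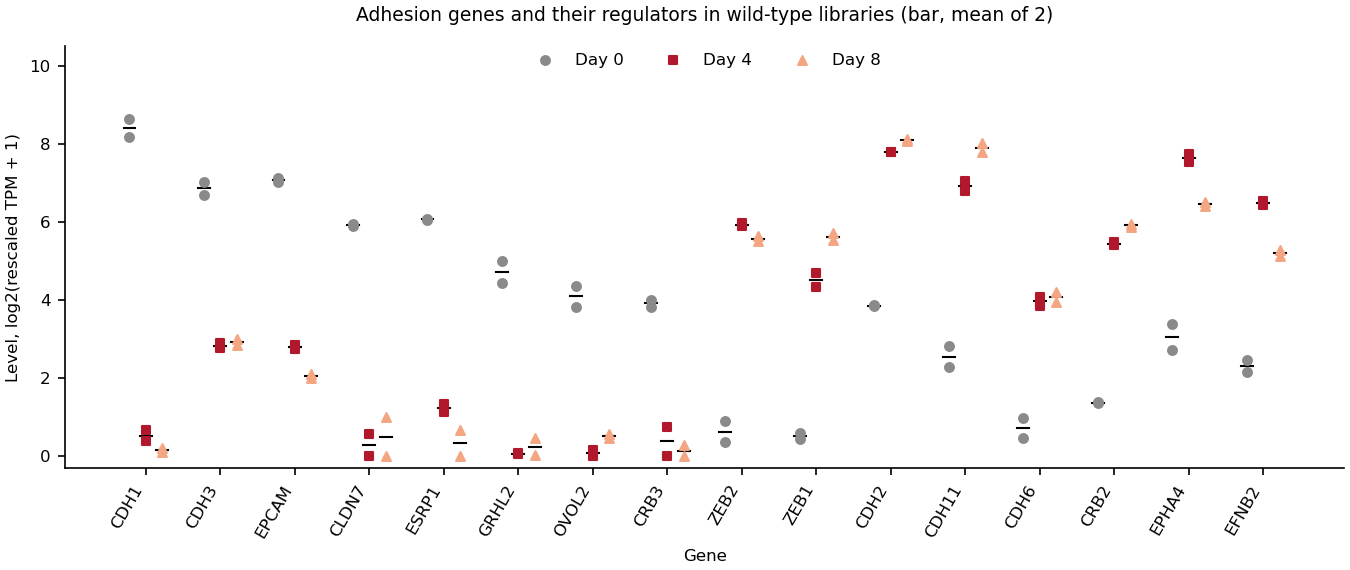
Levels of adhesion genes and their regulators in the wild-type libraries, as log2(rescaled TPM + 1), with a symbol for each library at day 0 (circles), day 4 (squares) and day 8 (triangles) and a bar at the mean of 2. CDH1, CLDN7, GRHL2, OVOL2 and CRB3 lie below 1 on this axis at day 4, and the day 4 libraries of ZEB2, CDH2, CDH11, CDH6 and CRB2 lie above both of day 0.

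The basement membrane and guidance genes were mixed. Of 39 matrix and integrin genes, 12 rose and 10 fell, against 24.5% and 16.8% of all genes. COL2A1, the fibrillar collagen of cartilage that neuroepithelium also makes, rose from 9.57 and 7.42 to 185 and 177 TPM, the laminin gene LAMA1 from 12.6 and 13.6 to 87.5 and 85.5 TPM and the nidogen gene NID1 from 10.4 and 10.8 to 51.8 and 55.5 TPM. The laminin gene LAMC1 fell from 87.3 and 93.1 to 35.5 and 38.0 TPM, and the collagen genes COL1A1 and COL1A2 fell, to 2.80 and 4.94 TPM for COL1A1 and 2.60 and 3.51 TPM for COL1A2. FN1, fibronectin, was at 65.8 and 70.0 TPM at day 0 and 47.2 and 60.7 TPM at day 4 (log2 fold change -0.34 with SE 0.16, adjusted p = 0.0761).

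Among ephrins and their receptors, 10 of 21 tested rose and 2 fell, against 24.5% and 16.8% of all genes (median 1.27, and 0.44 after centring). EPHA4 was at 9.44 and 5.53 TPM at day 0 and 184 and 214 TPM at day 4 (log2 fold change 4.59 with SE 0.19, adjusted p = 3.00e-08), and its ligand EFNB2 at 4.53 and 3.48 TPM at day 0 and 85.0 and 91.1 TPM at day 4 (log2 fold change 4.16 with SE 0.14, adjusted p = 8.59e-09). EFNB1 (3.86), EPHB2 (3.11), EFNA5 (2.71) and EPHA7 (2.67) also rose. EPHA1, found in epithelia, fell from 79.6 and 73.3 to 4.43 and 5.48 TPM and EPHA8 from 3.92 and 4.34 to 0.156 and 0 TPM. Of 45 axon guidance genes, 15 rose and 7 fell, led by SEMA6D, which rose from 2.77 and 1.59 to 44.8 and 51.3 TPM.

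In the NODAL pathway the co-receptor gene and feedback antagonists fell, while some receptor genes and SMAD2, SMAD3 and SMAD4 rose. Of 25 tested genes, 11 fell and 7 rose, against 16.8% and 24.5% of all genes, so the rises were near the general share. Besides TDGF1, the ligand gene GDF3 fell from 3.02 and 2.89 TPM to a listing of 0 in both day 4 libraries, and the feedback antagonists LEFTY1 and LEFTY2 from 2.60 and 2.20 to 0 and 0.0599 TPM and from 1.01 and 2.91 to 0 and 0.0477 TPM. NODAL itself was low at both days, at 1.25 and 0.422 TPM at day 0 and 0.685 and 1.37 TPM at day 4 (log2 fold change 0.16 with SE 0.27, adjusted p = 0.609). FOXH1, the DNA-binding partner of SMAD2 in NODAL responses, was at 71.2 and 66.0 TPM at day 0 and 0.961 and 0.599 TPM at day 4 (log2 fold change -5.30 with SE 0.22, adjusted p = 3.00e-08). FURIN, a protease that matures such ligands, fell from 81.7 and 71.2 to 13.1 and 15.5 TPM. The type I receptor gene ACVR1B rose from 8.46 and 12.5 to 32.2 and 30.3 TPM and the type II gene ACVR2B from 7.84 and 8.61 to 37.7 and 39.9 TPM. SMAD2 (1.60), SMAD3 (1.51) and SMAD4 (1.51) rose as well. Over the alternatives the lowest log2 fold change was 0.85 for SMAD2, 0.78 for SMAD3, 0.84 for SMAD4, 0.82 for ACVR1B and 1.22 for ACVR2B. Targets of the pathway fell, among them SMAD7 (-1.04), SKIL (-1.04) and PMEPA1 (-2.49).

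BMP genes were near the share of all genes, with 6 of 27 tested that rose and 3 that fell. The ID genes, targets of BMP that hold back differentiation, did not move as one: ID1 fell from 32.7 and 21.5 to 3.604 and 6.03 TPM, whereas ID2 rose from 118 and 108 to 385 and 382 TPM and ID4 from 1.39 and 1.09 to 11.3 and 13.3 TPM. ID3 was at 122 and 101 TPM at day 0 and 53.02 and 61.4 TPM at day 4 (log2 fold change -0.95 with SE 0.69, adjusted p = 0.24), without a call. The antagonists FST and GREM1 rose, FST from 13.6 and 7.69 to 43.4 and 53.2 TPM and GREM1 from 0.433 and 0.239 to 6.46 and 5.36 TPM, and both were lower at day 8, at 6.17 and 5.16 TPM for FST and 0.798 and 0.892 TPM for GREM1. TWSG1, an extracellular modulator, rose from 7.81 and 8.60 to 59.5 and 56.4 TPM. NOG was under 1 TPM in all 4 libraries, and BMP4 was at 2.69 and 1.99 TPM at day 0 and 3.21 and 3.27 TPM at day 4 (log2 fold change 0.35 with SE 0.46, adjusted p = 0.512).

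FGF genes moved in both directions. Of 16 tested FGF family and receptor genes, 3 rose and 6 fell, against 24.5% and 16.8% of all genes. FGF8, an organizer of the anterior neural ridge, rose from 0.22 and 0.27 to 48.5 and 47.2 TPM (log2 fold change 5.29 with SE 0.47, adjusted p = 3.58e-06) and FGF9 from 0.0204 and 0.153 to 19.1 and 27.8 TPM (log2 fold change 4.47 with SE 0.29, adjusted p = 4.83e-07). FGF2, which sustains human stem cells, was at 29.4 and 28.7 TPM at day 0 and 21.7 and 21.5 TPM at day 4, and it fell by 0.41 on the log2 scale. The ligand genes FGF19 (-1.54) and FGF1 (-1.63) fell, as did FGF12 (-1.72), a family member that is not a secreted ligand. FGFR4 fell from 77.8 and 80.4 to 21.9 and 20.5 TPM, and FGFR1, the most abundant receptor, was at 884 and 949 TPM at day 0 and 670.0 and 813 TPM at day 4, uncalled (log2 fold change -0.31 with SE 0.13, adjusted p = 0.057).

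Feedback genes of the ERK cascade were divided, 4 of 21 up and 7 down in all scalings. SPRY1, an inhibitor of receptor signalling, rose from 7.09 and 8.32 to 109.6 and 123 TPM, and SPRY2 from 11.6 and 10.6 to 48.3 and 58.9 TPM. ETV4, a transcription factor induced by FGF, fell from 85.0 and 89.8 to 13.5 and 16.5 TPM, and the phosphatase gene DUSP5 from 8.37 and 9.62 to 1.60 and 2.35 TPM. MYC was at 43.7 and 52.5 TPM at day 0 and 16.4 and 17.1 TPM at day 4 (log2 fold change -1.46 with SE 0.22, adjusted p = 0.00014). DUSP6 was at 105 and 84.5 TPM at day 0 and 37.2 and 46.0 TPM at day 4, lower in both day 4 libraries without being called (log2 fold change -1.17 with SE 0.70, adjusted p = 0.157). EGR1 and FOS, immediate early genes, differed between the day 0 libraries (21.0 and 5.01 TPM for EGR1 and 9.34 and 2.29 TPM for FOS) and were uncalled.

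Several WNT receptor genes and secreted inhibitors rose. Of 27 tested ligands, receptors and processing genes, 10 rose and 2 fell, against 24.5% and 16.8% of all genes (median 1.04, and 0.27 after centring). FZD5, the frizzled of the eye field, was at 7.13 and 7.99 TPM at day 0 and 164 and 189 TPM at day 4 (log2 fold change 4.37 with SE 0.21, adjusted p = 6.98e-08). FZD2 rose from 19.2 and 20.3 to 136 and 153 TPM and FZD8 from 3.28 and 3.14 to 18.5 and 20.4 TPM. ROR2, a receptor for non-canonical WNTs, rose from 1.90 and 3.14 to 39.7 and 40.5 TPM, and the non-canonical ligand WNT5B from 0.856 and 1.33 to 50.2 and 65.9 TPM. WLS, the carrier that brings WNT ligands out to the membrane, rose from 3.02 and 1.082 to 89.7 and 65.5 TPM and was at 32.4 and 18.04 TPM at day 8. LRP5 fell (-1.80) with unequal day 0 libraries, at 49.8 and 101 TPM, while its relative LRP6 rose (1.14).

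Of 15 inhibitors, 5 rose and 4 fell. FRZB, a decoy receptor, was at 1.36 and 1.49 TPM at day 0 and 127 and 135 TPM at day 4 (log2 fold change 5.76 with SE 0.18, adjusted p = 5.89e-09), SHISA2, which traps frizzled proteins in the secretory pathway, at 2.62 and 2.15 TPM at day 0 and 103 and 107 TPM at day 4 (log2 fold change 4.97 with SE 0.37, adjusted p = 1.14e-06), and TPBG at 9.11 and 9.51 TPM at day 0 and 267 and 246 TPM at day 4 (log2 fold change 4.64 with SE 0.13, adjusted p = 3.63e-09). SFRP1 and SFRP2 were already abundant at day 0, and rose, SFRP1 from 183 and 189.9 to 613 and 675 TPM and SFRP2 from 204 and 215 to 489 and 514 TPM. Their log2 fold changes of 1.78 and 1.25 shrank to 0.69 and 0.36 after centring by transcript length. WIF1 (-1.96) and SHISA3 (-1.76) fell from levels under 5 TPM. Canonical targets were split, 5 up and 5 down of 17. LEF1 rose from 0.85 and 0.551 to 19.6 and 17.4 TPM and the receptor gene LGR4 from 31.3 and 31.1 to 204 and 210.0 TPM. TCF7L1, a repressor of WNT targets in stem cells, fell from 83.9 and 92.8 to 20.1 and 21.8 TPM and TCF7L2 from 349.5 and 273 to 78.2 and 102 TPM. AXIN2, the target most often used as a readout, was at 9.76 and 9.08 TPM at day 0 and 16.6 and 15.03 TPM at day 4 (log2 fold change 0.69 with SE 0.33, adjusted p = 0.0848), uncalled.

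**Figure D5:**
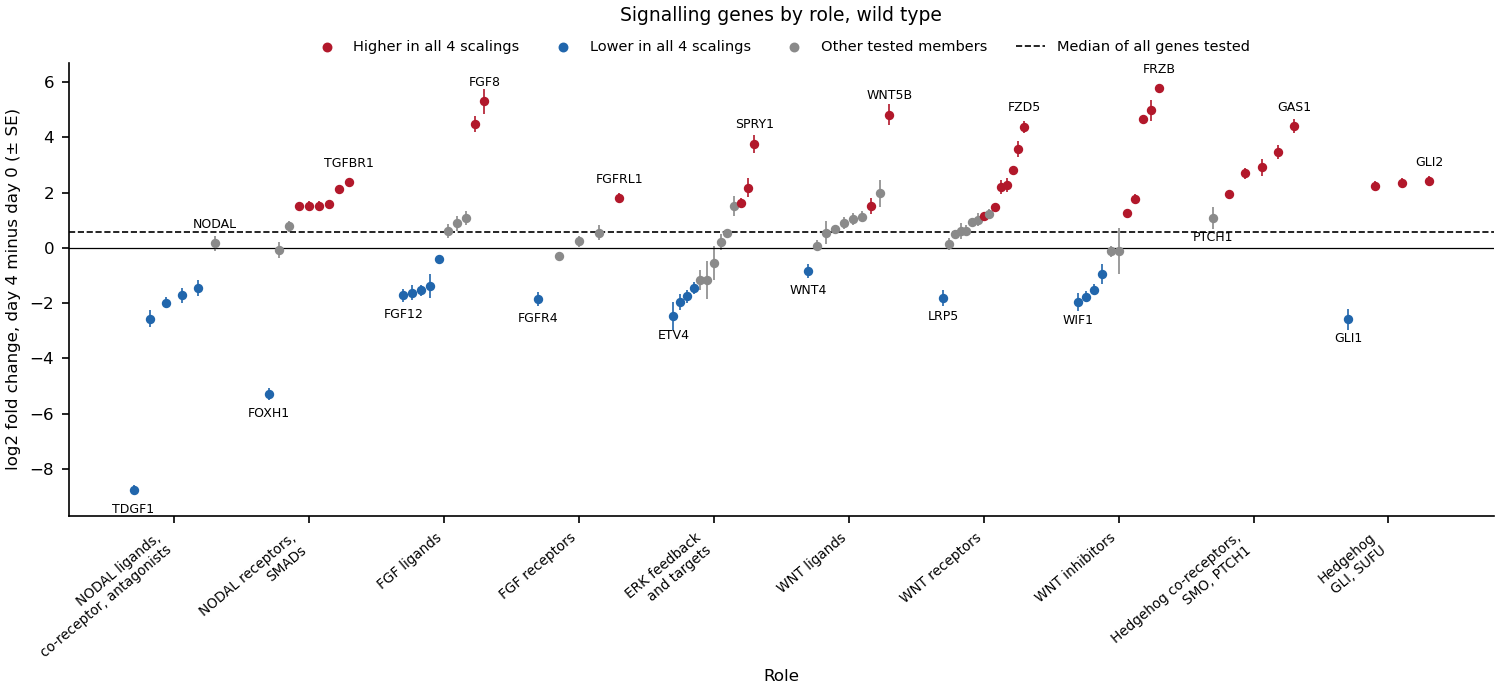
Log2 fold change from day 0 to day 4 in wild type (vertical axis, point, with its SE as a bar) of signalling genes grouped by role, coloured by whether the gene was higher or lower in all 4 scalings. The dashed line is the median of all genes tested, 0.55. TDGF1 and FOXH1 lie below -5, and FGF8, WNT5B, FZD5, FRZB and GAS1 lie above 4. The group labelled FGF ligands also holds FGF11, FGF12, FGF13 and FGF14, family members that are not secreted ligands.

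Of the signalling lists the Hedgehog pathway had the largest share of rises: 11 of 16 tested genes rose and 2 fell (median 2.37, and 1.88 after centring). The shares of all genes were 24.5% and 16.8%, and the list held 20 genes before the filter. The co-receptor genes led, with GAS1 from 1.76 and 1.14 to 47.5 and 53.6 TPM (log2 fold change 4.40 with SE 0.25, adjusted p = 1.99e-07), BOC from 12.03 and 6.65 to 108 and 111 TPM and CDON from 5.80 and 4.13 to 39.1 and 47.8 TPM. The effector genes GLI2 and GLI3 rose from 28.5 and 42.7 to 186 and 193 TPM and from 11.1 and 10.2 to 53.4 and 62.5 TPM, SMO from 33.6 and 32.2 to 126 and 134 TPM and SUFU from 4.82 and 5.91 to 27.9 and 30.5 TPM. GLI1, the target gene read as a sign of active signalling, fell from 23.4 and 26.1 to 5.004 and 2.03 TPM and was at 0.0635 and 0.0332 TPM at day 8. PTCH1, the other common target, was at 24.6 and 49.1 TPM at day 0 and 64.4 and 85.1 TPM at day 4 and was not called in every scaling (log2 fold change 1.07 with SE 0.40, adjusted p = 0.0342).

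Of 28 NOTCH genes, 9 rose and 2 fell, against 24.5% and 16.8% of all genes. DLL1, the ligand of neural progenitors, rose from 0.541 and 0.547 to 44.1 and 42.5 TPM (log2 fold change 4.84 with SE 0.24, adjusted p = 9.67e-08), HES1 from 7.18 and 4.37 to 51.3 and 66.7 TPM, NOTCH2 from 11.6 and 13.9 to 57.7 and 67.0 TPM, JAG1 from 19.2 and 13.3 to 61.0 and 58.1 TPM and the glycosyltransferase gene LFNG from 12.6 and 16.01 to 63.0 and 68.8 TPM. HEY2 fell from 4.10 and 3.55 to 0.892 and 0.714 TPM. HES1 was at 8.62 and 14.1 TPM at day 8, when HES5 and HES4 had risen as given above. Of 15 genes of the retinoic acid pathway, 4 rose and 5 fell. CYP26A1, which degrades retinoic acid, fell from 17.5 and 24.95 to 0.785 and 0.648 TPM, and the synthesis gene ALDH1A3 from 4.42 and 4.78 TPM to a listing of 0. CRABP2, a binding protein gene, rose from 92.8 and 119.8 to 290.0 and 304 TPM and the receptor gene RXRA from 11.9 and 10.7 to 45.0 and 43.9 TPM.

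Glycolysis genes were the metabolic group with the most falls. Of 25 tested, 14 fell and 0 rose, against 16.8% and 24.5% of all genes. LDHA, which turns pyruvate into lactate (chromosome 11, 18394388 to 18408425, plus strand), had 3569 and 8070 TPM at day 0, 39.7 and 41.4 TPM at day 4 and 39.9 and 37.1 TPM at day 8 (log2 fold change -7.01 with SE 0.30, adjusted p = 3.43e-08). The shortest annotated transcript of LDHA has 141 bases, and after centring by that length the log2 fold change was -6.0 (adjusted p = 2.29e-07). PGK1 fell from 630.0 and 1559 to 195 and 186 TPM, ALDOA from 1707 and 2544 to 444 and 479 TPM, PDK1, which keeps pyruvate out of the mitochondria, from 23.4 and 50.1 to 7.06 and 8.18 TPM, HK1 from 167 and 181 to 27.7 and 32.3 TPM and the glucose transporter gene SLC2A3 from 154 and 228 to 61.3 and 65.5 TPM. GAPDH was at 2887 and 3254 TPM at day 0 and 3203 and 3484 TPM at day 4 (log2 fold change 0.12 with SE 0.09, adjusted p = 0.225), and ENO1 (0.07) and PKM (0.09) were uncalled. SLC2A1 went up, from 91.8 and 226 to 267 and 299.5 TPM, but was not called in every scaling.

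The day 0 libraries differed from each other in this group, with WT2 above WT1 for LDHA, PGK1, PDK1 and ALDOA, and for the hypoxia-response genes SLC16A3 (9.76 and 85.9 TPM in WT1 and WT2), BNIP3 (26.7 and 99.5 TPM) and PFKFB4 (4.84 and 21.5 TPM). Without WT1 at day 0, 15 of the glycolysis genes were lower and 2 higher with the rescaled TPM, and without WT2 at day 0, 14 were lower and 6 higher, against 15 and 4 with both. The log2 fold change of LDHA was -7.60 and -6.43 in these fits. BNIP3 was at 25.8 and 26.8 TPM at day 4, near the WT1 value of day 0, and was uncalled (log2 fold change -0.95 with SE 0.44, adjusted p = 0.074). Among hypoxia-response genes, ADM fell from 42.9 and 44.1 to 3.82 and 4.96 TPM and VEGFA from 38.7 and 42.8 to 14.3 and 18.9 TPM. Of the 23 genes of this list, 5 fell and 0 rose, against 16.8% and 24.5% of all genes, so the falls were near the general share. With the rescaled TPM alone 6 were lower and 3 higher, against 9 and 1 without WT1 at day 0, 6 and 10 without WT2 at day 0, 6 and 2 without WT1 at day 4, and 6 and 0 without WT2 at day 4.

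The promoter of PGK1 is shown since most glycolysis genes that fell share its short motif, the core of the hypoxia response element, ACGTG on either strand, marked in capitals. The stretch is chrX:78103998-78104173 on the plus strand of GRCh38.p14, from RefSeq, 176 bases that end 75 bases before the annotated start, trimmed where the first exon of GENCODE v29 begins.
PGK1: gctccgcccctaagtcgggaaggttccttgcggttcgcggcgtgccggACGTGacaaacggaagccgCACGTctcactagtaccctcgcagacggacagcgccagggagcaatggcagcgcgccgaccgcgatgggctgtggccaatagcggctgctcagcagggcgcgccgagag
Both matches lie 179 to 202 bases before the start. Of the 14 glycolysis genes that fell, 13 had a promoter in the table, and 11 of the 13 held the motif in the 250 bases before at least 1 of their starts, LDHA, ALDOA, PDK1 and TPI1 among them. The same held for 21.7% of all 27305 genes with a promoter there, and 2.61% of all promoters held at least 2 matches. The motif was not counted for the glycolysis genes that did not fall. Whether it goes with the fall or with glycolysis genes in general was therefore not tested. The motif is also part of the E-box CACGTG, and a match in these letters is not a bound site.

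Other metabolic lists were mixed. Of 33 nuclear genes of the respiratory chain, 13 fell and 4 rose, with COX6A1 up from 179.5 and 165 to 567 and 554 TPM and NDUFB5 down from 409 and 446 to 68.5 and 65.6 TPM. Of 32 sterol and fatty acid synthesis genes, 4 rose and 7 fell: HMGCS1, early in the sterol pathway, rose from 97.3 and 102 to 295 and 312 TPM, while the fatty acid genes ELOVL6 and FASN fell from 254 and 255 to 43.5 and 40.6 TPM and from 628 and 866 to 262 and 274 TPM. MAT2A, which makes the methyl donor S-adenosylmethionine, rose from 119 and 115 to 539.5 and 521 TPM. Of 25 genes of serine and one-carbon metabolism and its stress response, 6 rose and 8 fell. Among the last were targets of amino acid stress: ASNS fell from 97.5 and 63.6 to 26.2 and 25.8 TPM and CHAC1 from 32.3 and 19.5 to 5.21 and 2.77 TPM.

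Metallothionein genes, which encode zinc-binding proteins, went both ways: of 14 metallothionein and metal transport genes, 2 rose and 7 fell. MT1G fell from 57.3 and 100.4 to 3.68 and 0.752 TPM, MT1H from 14.8 and 41.1 to 1.55 and 1.60 TPM, MT1E from 24.4 and 60.1 to 5.88 and 5.08 TPM and MT2A from 38.2 and 46.3 to 8.53 and 9.77 TPM, whereas MT1X rose from 29.7 and 48.9 to 111 and 103 TPM. WT2 was the higher of the day 0 libraries for each of these 5. They are near-identical copies, so their reads can be split among them and the single values are uncertain. The zinc exporter gene SLC30A1 rose from 2.14 and 3.58 to 13.3 and 13.3 TPM.

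Genes of the entry into S phase rose in 18 of 40 cases tested and fell in 3, against 24.5% and 16.8% of all genes. E2F1 rose from 14.7 and 13.1 to 44.5 and 44.5 TPM, the cyclin gene CCNE2 from 4.15 and 3.43 to 15.8 and 14.03 TPM, PCNA from 145 and 138 to 435 and 407 TPM and MCM2 from 70.3 and 62.8 to 180.5 and 189.5 TPM. CCND1 fell from 75.3 and 72.9 to 41.5 and 49.6 TPM and CCND2 rose from 15.2 and 12.7 to 34.7 and 40.6 TPM. For mitosis, 3 of 28 rose and 3 fell, PLK1 from 209 and 232 to 109 and 111 TPM, and MKI67 was at 46.0 and 47.9 TPM at day 0 and 54.6 and 56.1 TPM at day 4 (log2 fold change 0.23 with SE 0.10, adjusted p = 0.0604), uncalled.

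Several genes of cell death and growth arrest were lower at day 4. BAX, a death effector gene, fell from 456 and 461 to 84.3 and 101 TPM, PMAIP1, the death gene NOXA, from 43.4 and 42.0 to 2.87 and 2.98 TPM, RRM2B from 212 and 143 to 14.2 and 11.2 TPM, PHLDA3 from 18.1 and 18.3 to 1.05 and 0.922 TPM and MDM2 from 135 and 101 to 34.0 and 41.7 TPM. BTG2 rose from 1.38 and 1.28 to 12.5 and 13.7 TPM, BCL2L1 from 27.6 and 20.2 to 60.3 and 57.7 TPM and MCL1 from 66.2 and 61.9 to 154 and 151 TPM. Of the list of such genes, 7 of 24 tested fell and 5 rose, against 16.8% and 24.5% of all genes. CDKN1A was at 4.16 and 3.57 TPM at day 0 and 2.54 and 6.04 TPM at day 4 (log2 fold change 0.04 with SE 0.38, adjusted p = 0.929).

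Single chromatin regulators moved in both directions. Of 27 Polycomb and Trithorax genes, 12 rose and 2 fell, against 24.5% and 16.8% of all genes. EZH2, the histone methyltransferase of PRC2, rose from 28.2 and 25.7 to 130.4 and 143 TPM, and its partners EED and SUZ12 from 15.2 and 10.48 to 45.8 and 46.1 TPM and from 11.5 and 8.44 to 30.3 and 27.6 TPM. In PRC1, CBX2 rose from 28.9 and 27.0 to 144 and 156 TPM and CBX8 from 1.07 and 0.986 to 12.7 and 15.1 TPM, while PHC1 fell from 949.8 and 1000 to 83.1 and 81.0 TPM (log2 fold change -3.56 with SE 0.14, adjusted p = 2.44e-08). Of 14 DNA methylation genes, a small list, 5 rose and 2 fell, the falls being near the share of all genes. UHRF1, which guides maintenance methylation, rose from 16.8 and 11.9 to 86.6 and 91.0 TPM and TET3 from 3.96 and 3.78 to 13.6 and 13.5 TPM, and TRIM28 fell from 1696 and 1710 to 638 and 704 TPM. Of 25 SWI/SNF subunits, 8 rose and 6 fell, not far from the shares of all genes. BCL7A rose from 4.48 and 4.51 to 28.8 and 31.0 TPM and BCL11A fell from 20.5 and 18.2 to 0.848 and 0.693 TPM.

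Of 23 tested splicing regulators, 7 rose and 7 fell, against 24.5% and 16.8% of all genes. PTBP1, the splicing repressor of non-neural cells, fell from 1203 and 1154 to 388 and 349 TPM, and its neural relative PTBP2 rose from 46.7 and 41.6 to 109.6 and 94.99 TPM. RBFOX2 rose from 45.0 and 42.2 to 191 and 214 TPM, NOVA1 from 8.41 and 5.51 to 32.9 and 31.6 TPM and NOVA2 from 4.199 and 4.38 to 21.7 and 22.8 TPM. Of 15 genes of the LIN28 and let-7 axis, 7 rose and 3 fell. DGCR8, of the miRNA-processing complex, rose from 21.6 and 22.04 to 99.0 and 98.0 TPM while DROSHA, its partner, fell from 255 and 244 to 103 and 75.5 TPM. Of 29 ion channel and transmitter receptor genes, 5 rose and 9 fell. The calcium channel gene CACNA1A rose from 9.88 and 11.7 to 41.3 and 43.7 TPM. Of the SOX family, 7 of 15 tested members rose and 0 fell, against 24.5% and 16.8% of all genes. The list held 19 genes before the filter. Tested members near 0 at day 0, such as SOX6, had little room to fall, so the count of falls is partly set by the filter. The SOX genes that rose included SOX5 (from 1.21 and 0.161 to 29.5 and 25.02 TPM), SOX4 (from 24.5 and 24.3 to 90.8 and 95.8 TPM) and SOX6 (from 0.249 and 1.04 to 6.75 and 7.54 TPM). Of the POU family, 3 of 10 rose and 5 fell. POU3F1 and POU3F2, factors of neural progenitors, rose from 8.03 and 8.33 to 76.3 and 95.2 TPM and from 0.0175 and 0.0707 to 8.36 and 8.30 TPM, and POU2F2 fell from 20.4 and 10.1 to 4.11 and 2.21 TPM.

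Of 24 imprinted genes tested, 8 rose and 3 fell, near the 24.5% and 16.8% of all genes. PEG10 rose from 49.1 and 53.4 to 182 and 183 TPM and PLAGL1, a zinc finger gene, from 2.72 and 1.05 to 11.0 and 8.51 TPM, while PHLDA2, which restrains placental growth, fell from 2.41 and 2.78 to 0 and 0.522 TPM. Of 24 genes of surface antigens used to sort cells, 14 fell and 6 rose. TNFRSF8, the CD30 antigen of stem cells, fell from 5.15 and 4.61 to 0.0979 and 0.147 TPM and KIT, a receptor gene, from 10.6 and 9.51 to 5.61 and 6.12 TPM. PROM1, whose protein is CD133, fell from 106 and 71.0 to 43.5 and 43.1 TPM, and CXCR4, a chemokine receptor gene, rose from 0.262 and 0.728 to 4.64 and 5.92 TPM. Of 21 genes of heat shock and the unfolded protein response, 2 rose and 2 fell.

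Ribosomal protein genes were a case where members went in opposite directions with large values. RPL14 fell from 17070 and 16560 to 1253 and 1254 TPM (-3.74) and RPL41 from 31740 and 32280 to 9008 and 8608 TPM, while RPL36A rose from 535 and 537 to 5580 and 4762 TPM (3.26) and RPL39 from 825 and 831 to 6087 and 5283 TPM. Of 78 tested, 21 rose and 16 fell, near the 24.5% and 16.8% of all genes, with a median of 0.54, close to that of all genes. These genes have many pseudogene copies, which share their reads, and their part in these values was not tested.

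The 15 largest rises and the 15 largest falls were named by a fixed rule, among called genes with a mean of at least 10 TPM in the higher group and no overlap between the groups. Beside genes given above, the rises were in GREB1L (0.254 and 0.234 to 217 and 227 TPM), SMOC1, a matrix protein gene with a role in eye development (0.899 and 1.084 to 236 and 262 TPM), PRTG, protogenin, an immunoglobulin-family gene of the early neural tube (4.27 and 3.31 to 514 and 529 TPM), PAMR1 (3.74 and 3.24 to 288 and 346 TPM), the protease gene PRSS23 (4.22 and 3.18 to 307 and 318 TPM) and the kinase gene MAPK10 (2.63 and 2.34 to 173 and 182 TPM). The falls were in AP1M2, an adaptor of epithelial sorting (243 and 241 to 0.783 and 0.449 TPM), the chemoattractant gene RARRES2 (295 and 274 to 0.331 and 1.66 TPM), the RNA-binding gene RBM47 (178 and 244 to 1.06 and 0.884 TPM), HHLA1 (220.1 and 317 to 0.287 and 0.449 TPM) and CALB1, calbindin (214 and 272 to 2.58 and 0.984 TPM). Adjusted p for all 30 genes ran from 1.50e-10 for PRTG to 2.56e-06 for LUZP6. Some named falls are in genes whose shortest annotated transcript has at most 300 bases, bins in which the median change was a fall. It has 266 bases for TDGF1, 282 for CDH1, 229 for RBM47 and 141 for LDHA. After centring by that length these had log2 fold changes of -8.22, -7.33, -5.72 and -6.0. Others have longer ones, such as AP1M2 (336), POU5F1 (369), CALB1 (534) and RARRES2 (563). How far a difference in sequencing adds to these falls was not tested.

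Of the 15 named falls, 8 lie in genes that share exons with a neighbour in GENCODE v29, TDGF1 and HHLA1 among them, so that their reads may be divided between genes. LUZP6 lies inside MTPN, and while LUZP6 was at 613 and 644 TPM and then listed at 0 in both day 4 libraries, MTPN went as deposited from 25.6 and 21.0 to 107 and 102 TPM. PIGY and PYURF come from the same locus, with PIGY at 399 and 312 TPM and then listed at 0 and PYURF, among the named rises, at 1.28 and 0 and then 76.7 and 75.6 TPM. The clone-based names AC104534.3, RP11-1012A1.4, RP11-603J24.9 and RP11-77K12.1 were at 202 and 245, 290.2 and 290.4, 186 and 151 and 225 and 341 TPM at day 0, against 0 in both day 4 libraries for the first and the third, 0.275 and 0.574 TPM for the second and 1.35 and 2.995 TPM for the last. Of all 290 genes followed by name here, 22 share an exon with another gene, and their values are uncertain for that reason. Beyond those given above they include CLDN7, OVOL2, PGK1, ALDOA, SMAD4, LEFTY1, AXIN2, PROM1, TUBB3 and RPL36A.

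The same step was read in the libraries labelled SOX21-/-. The mRNA of SOX21 itself did not bear out the label, since S13 and S23 were at 2.87 and 3.27 TPM at day 0 and 186 and 164 TPM at day 4, against 2.26 and 2.48 TPM at day 0 and 179.9 and 192 TPM at day 4 for WT1 and WT2, so these values do not show the mutation. In these libraries 6832 genes were higher (46.1%) and 3192 lower (21.6%) at day 4. Of the 7651 wild-type genes higher at day 4 with the rescaled TPM, 82.9% were also higher there, which is 92.9% of the genes higher in the libraries labelled SOX21-/-, and for lower genes the shares were 88.0% and 78.5%. The 2 steps share no library, but in all 4 day 0 libraries the protein-coding share of TPM was 55.9% to 56.4%. The fall of POU5F1 (-6.45 against -6.67), CDH1 (-8.05 against -7.88) and LDHA (-7.40 against -7.01) and the rise of PAX6 (6.62 against 6.71) had values close to each other, with differences of 0.22 (SE 0.42), -0.17 (SE 0.28), -0.39 (SE 0.42) and -0.09 (SE 0.31) that did not pass the test.

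The size of the step was then compared between the genotypes. The test of that difference in limma put 2157 of 14809 genes at an unadjusted p under 0.05. After adjustment it called 10 genes with a larger value in the libraries labelled SOX21-/- (0.0675% of those tested) and 16 with a smaller one (0.108%). The 5 with the largest difference in each direction were named by a fixed rule, among called genes with a mean of at least 10 TPM in any group compared. DBX1, a homeobox gene of the caudal forebrain and midbrain list, rose by more in the libraries labelled SOX21-/-, where it was at 0.0714 and 0 TPM at day 0 and 128 and 199 TPM at day 4 (difference 2.98 on the log2 scale, SE 0.38, adjusted p = 0.0302). The others with a larger value were FSIP1 (4.38), TMEM132C (3.14), IGDCC3 (1.75) and MYCL (1.75). FSIP1 already differed at day 0, at 18.1 and 17.9 TPM in wild type and 0.265 and 0.189 TPM in the libraries labelled SOX21-/-.

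LHX2 rose by less there, from 0.451 and 0.361 to 21.0 and 23.5 TPM (difference -1.90, SE 0.26, adjusted p = 0.0315). SCNN1D (-4.31), VPS9D1 (-2.52), DDIT4 (-2.15) and PLEKHG5 (-2.05) were the others with a smaller value, and each of these 4 was higher at day 0 in both libraries labelled SOX21-/- than in wild type. MAPK10, followed up after its value was seen, had a difference of -1.09 (SE 0.16, adjusted p = 0.0447). In the libraries labelled SOX21-/- RAX was at 29.1 and 39.3 TPM and SIX3 at 36.4 and 30.4 TPM at day 4, and they did not pass this test (adjusted p = 0.0803 and 0.0922, differences -2.31 and -1.57). Without WT1 at day 4 and without WT2 at day 4, limma called 0 genes for a difference (1805 and 1429 at an unadjusted p under 0.05), and without WT2 at day 0 the number was 85. With the replicate block, which pairs libraries by number, it was 0 (2153 at an unadjusted p under 0.05).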

How the data were processed

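Poly(A)-enriched RNA of H9 cells was sequenced in 12 libraries. TPM per gene were deposited by the authors, and the submitters' processing notes name Salmon 0.8.2, CASAVA 1.7 and hg38. Annotation release and strand setting are not given in the sources used here, and TPM keep no read depth. From 58219 genes in the table, 19804 protein-coding genes outside the mitochondrial genome were rescaled to 1000000 per library, filtered at 1 TPM in at least 2 libraries (14809 genes) and tested on log2(TPM + 1) with limma 3.58.1 in R 4.3.3, as a mean per genotype and day with trended moderation, two-sided, with Benjamini-Hochberg adjustment at 0.05. Transcript lengths and exons came from GENCODE v29, promoters from RefSeq (GRCh38.p14). Named genes were the 15 largest changes in each direction, among genes past the threshold with a mean of at least 10 TPM in the higher group and no overlap of groups. To these came the 5 largest differences between genotypes in each direction, among called genes with a mean of at least 10 TPM in any group compared, and members of 50 lists. The members and lists were chosen with earlier results of these data known. The fit was tested on simulated data with 50 genes changed at each of 4 sizes. It recovered 6% of log2 changes of 0.5, 54% of 1, 94% of 2 and 98% of 4, with 3 false calls. All other genes were left without a change from day 0 to day 4 there, unlike in these data, where 70.9% were called. Libraries with the same number did not deviate together in wild type (correlations of deviations from group means -0.015 to 0.023), nor in SOX21-/- apart from days 4 and 8 (-0.027, -0.023 and 0.21), so the main comparison is unpaired. Alternatives covered the pseudocount, filter, scaling, moderation, libraries fitted and each library left out. A few genes are not reported here.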

Additional observations from a re-analysis of the deposited data

Results flagged for a closer look

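The genes below were singled out because their change from day 0 to day 4 differed between the genotypes by the test of the difference itself (limma, Benjamini-Hochberg adjustment over 14809 genes). The step was larger in the libraries labelled SOX21-/- by 2.98 on the log2 scale for DBX1 (adjusted p = 0.0302), 4.38 for FSIP1 (adjusted p = 0.0476), 3.14 for TMEM132C (adjusted p = 0.012), 1.75 for IGDCC3 (adjusted p = 0.012) and 1.75 for MYCL (adjusted p = 0.0476). It was smaller there by a difference of -1.90 for LHX2 (adjusted p = 0.0315) and -1.09 for MAPK10 (adjusted p = 0.0447), -4.31 for SCNN1D (adjusted p = 0.0173), -2.52 for VPS9D1 (adjusted p = 0.0476), -2.15 for DDIT4 (adjusted p = 0.0315) and -2.05 for PLEKHG5 (adjusted p = 0.0315). Over 23 alternatives each the call held in 18 for TMEM132C and IGDCC3, 17 for SCNN1D, 13 for DBX1, 11 for LHX2, 10 for DDIT4, 8 for MYCL, 7 for FSIP1 and PLEKHG5 and 5 for VPS9D1 and MAPK10, and with the replicate block 0 genes were called. Each of these rests on 2 libraries a group, and the mRNA level of SOX21 did not bear out the genotype label.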

How the results depend on the processing

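Scaling decided the split of calls. For the wild-type step, median-of-ratios scaling gave 4485 higher and 4836 lower genes and centring by transcript length 4444 and 4481, against 7651 and 2848. With all gene types and TPM as deposited 13177 were higher, and tested against a 2-fold change (treat) 2265 were higher and 993 lower. The other settings stayed within 1.5 times, and leaving out 1 library gave 6740 to 7693 higher and 2436 to 2856 lower genes. The calls of a difference between genotypes, 26 in all, numbered 7 with no filter, 99 with TPM as deposited, 17 with median-of-ratios scaling, 16 after centring by transcript length, 13 without trended moderation and 0 with treat (89 at an unadjusted p under 0.05). Leaving out 1 library gave 0 to 85, and without either wild-type day 4 library the 0 stood beside 1805 and 1429 genes at an unadjusted p under 0.05. The replicate block, which pairs libraries by number, gave 7626 and 2831 genes for the wild-type step and 0 for the difference (2153 at an unadjusted p under 0.05). The labels do not say whether a name (WT1, WT2, S13, S23) marks cells followed over the days. Leaving out 1 library left 18 to 19 core pluripotency genes lower, 27 to 29 pan-neural and 15 to 16 rostral genes higher, and 14 to 15 glycolysis genes lower.

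The settings for the step in the libraries labelled SOX21-/- and for day 8 against day 4 were chosen after seeing the data. The step from day 0 to day 4 in the libraries labelled SOX21-/- gave 11664 higher genes with TPM as deposited, 4452 higher after centring by transcript length, 4814 lower under median-of-ratios scaling, and 1670 higher and 1104 lower with treat. Leaving out 1 library gave 6024 to 6825 higher and 2811 to 3201 lower genes. From day 4 to day 8, treat left 84 higher and 37 lower genes, and leaving out 1 library gave 761 to 1856 higher and 364 to 1131 lower ones, with the low values from the wild-type libraries of days 4 and 8.

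Of 290 genes followed by name, 226 kept their direction and their side of the threshold in every alternative run for them. The sign changed in at least 1 alternative for 20 genes, 4 of which (BMP4, CDKN1A, FOS and NODAL) passed the threshold in no setting. Where the value before or after the change passed it, signs turned with median-of-ratios scaling for DNMT3B (-0.67), DSG2 (-0.59), ENO1 (-0.60), GAPDH (-0.55), MKI67 (-0.43) and PKM (-0.59). They turned after centring by transcript length for DNMT3B (-0.89), DSG2 (-0.76), ENO1 (-0.67), GAPDH (-0.32), HES5 (-0.020), MKI67 (-0.54) and POU3F3 (-0.73). DSG2 was at -0.37 with quantile normalization, FGF2 at 0.20 with TPM as deposited, and PFKFB4 at -0.80 without WT1 at day 0 and at 1.15 without WT2 at day 0. Beyond the scalings' own construction the cause was not tested. The difference between genotypes for LHX2 ranged from -2.17 to -1.71 over 23 alternatives (adjusted p 0.0251 to 1.0), passing in 11 of them, that for DBX1 from 2.66 to 3.29 (0.0153 to 0.93), passing in 13, and that for MAPK10 from -1.18 to -0.92 (0.0237 to 1.0), passing in 5. TPM keep no counts, so what depth limits cannot be given.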
